A study of Homo sapiens with 19 samples.

Results

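The peaks of RNA polymerase II (Pol II) in U2OS cells, an established human osteosarcoma line, were compared after siRNA against EP400 and after mock siRNA. All peaks of both deposited Pol II lists were taken, 20987 after EP400 siRNA and 30760 after mock siRNA, which makes 51747 of the 431797 peaks in the 11 ChIP lists of the series. EP400 siRNA cells and mock siRNA cells (siRNA to GFP) were harvested 72 hr after transfection, and chromatin was precipitated with a Pol II antibody in 1 library per condition. The same cells gave 1 list per condition for the Mediator subunit MED26 and the histone variants H2AZ and H3.3. H3K18ac and H3K4me1 were mapped in mock siRNA cells alone, and a list of EP400 peaks, pooled from replicate libraries, came without a knockdown. RNA levels came from 1 library per condition. The series title asks about H3.3 placement by EP400 at promoters and enhancers during gene activation, and the pair of Pol II lists shows where the polymerase was called with and without the siRNA.

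Pol II transcribes protein-coding genes and many non-coding RNAs. It gathers at promoters, where it can pause just past the start, and it also binds active enhancers, where it makes short unstable transcripts. EP400 is the remodelling ATPase of the TIP60-EP400 complex and places histone variants in nucleosomes near promoters. MED26 is a Mediator subunit that links the complex to elongation factors. H3K18ac marks active promoters and enhancers, and H3K4me1 marks enhancers.

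EP400 RNA, which the siRNA targets, measured 2.28 FPKM after EP400 siRNA (the authors' limits 0.162 to 4.41) and 10.04 FPKM after mock siRNA (0.165 to 19.9), a log2 ratio of -1.75. FPKM are fragments per transcript length and per library size, and all log2 RNA ratios here are of FPKM plus 1, EP400 siRNA over mock. The limits of the 2 libraries overlap. The EP400 locus, chromosome 12 from 132434465 to 132565011 in hg19, kept its Pol II peak at an end, and Pol II peaks covered 1100 bp there after EP400 siRNA and 1400 bp after mock siRNA. Of 25 mesenchymal and osteoblast markers 16 had a mean FPKM of 1 or more. RNA was lower by 2-fold or more in 7 of these, against 22.9% of all genes at that level. It was higher by as much in 2, against 6.11% of all genes. After scaling both libraries to equal summed FPKM 5 were lower and 5 higher, against 623 and 3351 of all 11666 genes. The list summed to 4365 FPKM after EP400 siRNA and 10448 FPKM after mock siRNA. LGALS1, a galectin, alone made 2771 FPKM of the first sum and 8753 FPKM of the second. Vimentin was at 1132 FPKM after EP400 siRNA and 618 FPKM after mock siRNA, COL1A1, a collagen chain, at 60.8 FPKM after EP400 siRNA and 376 FPKM after mock siRNA, and TWIST1 and IBSP were listed at 0 in both. Of 12 haematopoietic and endothelial markers 1, TIE1, passed that level, and their summed level was 2.82 FPKM after EP400 siRNA and 1.18 FPKM after mock siRNA. The epithelial keratins KRT8 and KRT18 were at 115 and 316 FPKM after EP400 siRNA and 369 and 519 FPKM after mock siRNA, while ESRP1 and GRHL2 were at 0.00595 FPKM or less. No EP400 siRNA or mock siRNA library has a replicate, so no test was made and no p-value is given. The depth of the libraries is unknown. Fewer peaks in a list can come with fewer reads or weaker enrichment, and that part in every difference below was not tested. Peaks from a culture also cannot tell fewer cells with Pol II at a site from less Pol II per cell.

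The forms that differences took are best seen at single genes, and the promoters of 4 of them are printed here because their Pol II peaks were narrowed or missing after EP400 siRNA. HSPB1 encodes the small heat shock protein HSP27, CLDN4 a tight junction claudin, ALPP placental alkaline phosphatase and IFI6 an interferon-induced mitochondrial protein. The sequences are RefSeq's, build GRCh38.p14, matched by symbol, and run 5′ to 3′ through the annotated start. Capitals mark matches on either strand to the TATA box (TATAAA), the CCAAT box (CCAAT), the GC box (GGGCGG) or the AP-1 motif (TGANTCA), which overlap in none of these 4.
HSPB1 promoter, chr7:76302423-76302722, plus strand: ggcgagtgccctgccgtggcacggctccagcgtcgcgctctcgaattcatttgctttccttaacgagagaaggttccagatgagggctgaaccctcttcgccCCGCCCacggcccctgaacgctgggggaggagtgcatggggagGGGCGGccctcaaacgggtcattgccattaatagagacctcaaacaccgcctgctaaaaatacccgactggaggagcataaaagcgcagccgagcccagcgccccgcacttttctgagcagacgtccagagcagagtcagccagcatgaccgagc
CLDN4 promoter, chr7:73830746-73831045, plus strand: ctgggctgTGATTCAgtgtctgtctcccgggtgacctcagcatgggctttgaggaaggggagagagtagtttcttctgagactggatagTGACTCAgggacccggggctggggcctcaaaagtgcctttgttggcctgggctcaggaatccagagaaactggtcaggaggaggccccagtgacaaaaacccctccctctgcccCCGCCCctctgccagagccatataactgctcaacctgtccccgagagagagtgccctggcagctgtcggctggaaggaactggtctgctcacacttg
ALPP promoter, chr2:232378501-232378800, plus strand: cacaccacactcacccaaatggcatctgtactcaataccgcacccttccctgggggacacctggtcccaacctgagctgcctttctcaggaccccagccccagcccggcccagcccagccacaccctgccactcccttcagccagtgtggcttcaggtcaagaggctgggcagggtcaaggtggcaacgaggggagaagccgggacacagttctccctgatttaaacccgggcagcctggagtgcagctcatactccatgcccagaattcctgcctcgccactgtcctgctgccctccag
IFI6 promoter, chr1:27672143-27672442, minus strand: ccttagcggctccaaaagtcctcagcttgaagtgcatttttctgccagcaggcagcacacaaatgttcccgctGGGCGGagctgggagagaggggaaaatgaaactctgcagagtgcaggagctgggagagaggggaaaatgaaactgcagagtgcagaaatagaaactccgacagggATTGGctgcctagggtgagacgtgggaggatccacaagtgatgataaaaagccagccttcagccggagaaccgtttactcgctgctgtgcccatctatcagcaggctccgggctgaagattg
HSPB1 held 2 GGGCGG matches, CLDN4 held 1 GGGCGG and 2 TGANTCA matches, IFI6 held 1 GGGCGG and 1 CCAAT match, and ALPP held none of the 4 motifs. Of the 27305 promoters of the same length in the RefSeq table, 44.6% held GGGCGG, 35.7% CCAAT, 12% TATAAA and 7.76% TGANTCA on either strand. These matches describe the letters in these windows and say nothing of binding. The peaks themselves are in hg19, another build, and are given by their distance from the left end of each gene's locus.

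At HSPB1, whose locus spans 1740 bp, peaks of 800 and 500 bp were called after EP400 siRNA, against peaks of 2500, 700 and 800 bp after mock siRNA. The first of each list lay at -174 to 625 bp after EP400 siRNA and at -574 to 1925 bp after mock siRNA, so the narrower peak sat inside the wider one. HSPB1 RNA was 238 FPKM after EP400 siRNA and 1799 FPKM after mock siRNA. CLDN4 had 1 peak of 600 bp after EP400 siRNA, at 308 to 907 bp, against 1 of 3100 bp after mock siRNA, at -92 to 3007 bp. CLDN4 RNA was 10.9 FPKM after EP400 siRNA and 63.4 FPKM after mock siRNA. ALPP had no peak within 2 kb of its locus after EP400 siRNA, against a peak of 500 bp over its left end after mock siRNA, and its RNA was 0.0571 FPKM after EP400 siRNA against 12.7 FPKM after mock siRNA. IFI6 had no peak after EP400 siRNA, against peaks of 500, 100 and 100 bp after mock siRNA, the widest of them over the end that RefSeq gives as the start. IFI6 RNA went the other way from ALPP RNA. It was 737 FPKM after EP400 siRNA (the authors' limits 0 to 2779) and 109 FPKM after mock siRNA (0 to 377). These limits overlap, as do those of HSPB1 and CLDN4, while those of ALPP do not. For genes named below the limits are not printed, and RNA directions rest on the FPKM values alone.

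**Figure D1:**
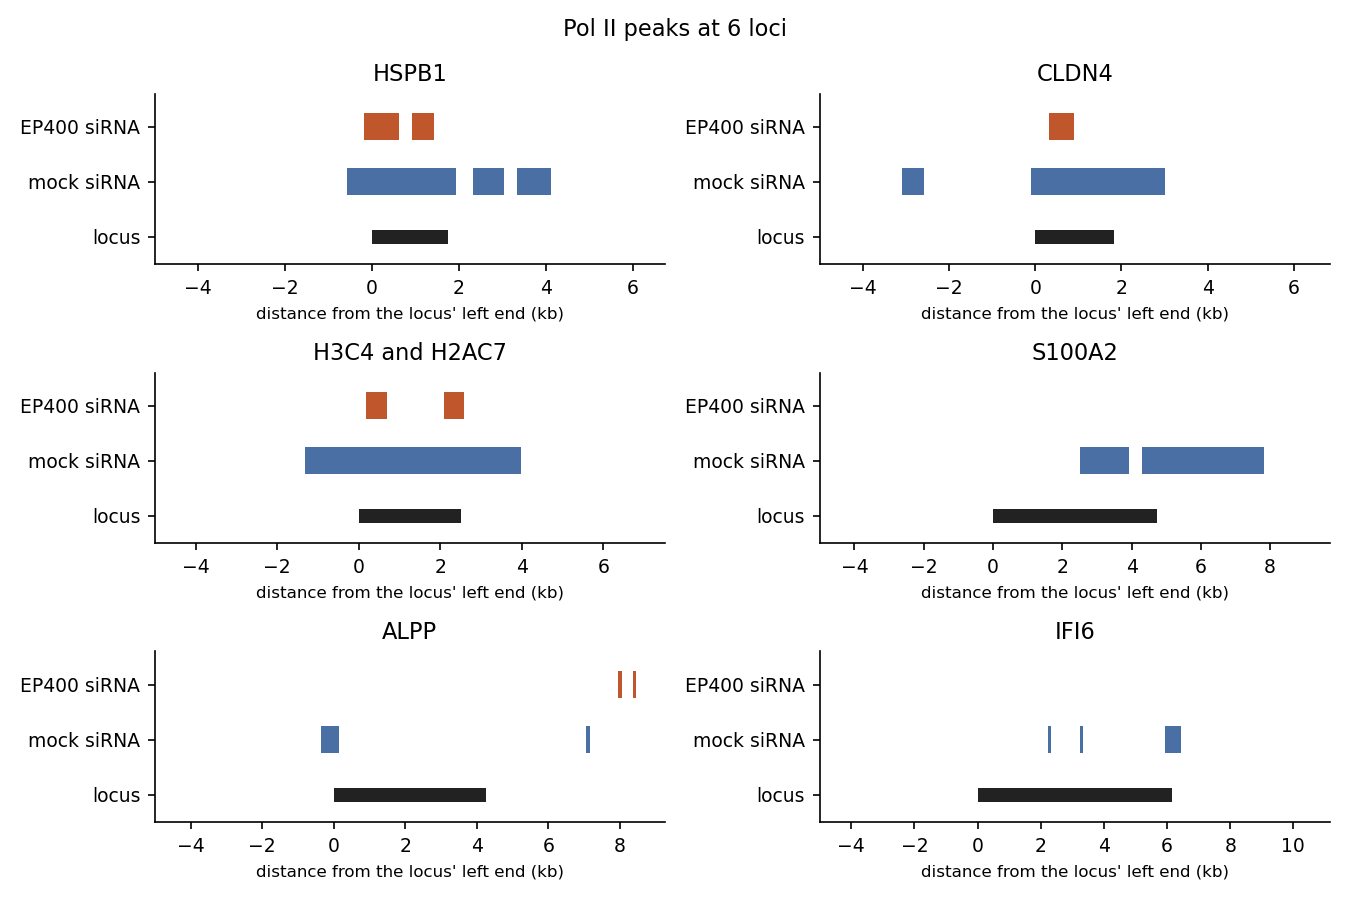
Pol II peaks (coloured bars) of EP400 siRNA cells and mock siRNA cells at 6 loci (black bars), by distance from the left end of the locus in kb. Peaks after EP400 siRNA lie inside wider mock peaks at HSPB1, CLDN4 and the locus shared by H3C4 and H2AC7, and S100A2 and IFI6 have none after EP400 siRNA; ALPP was left with peaks outside its 2 kb window alone.

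Across the genome the EP400 siRNA list held 0.682 times as many peaks as the mock list and covered 0.615 times as much DNA, 13.1 Mb against 21.3 Mb. The median width was 500 bp in both lists, but the wide end differed. The upper quartile was 900 bp after EP400 siRNA and 1100 bp after mock siRNA, and the 90th percentile was 1300 bp after EP400 siRNA and 1600 bp after mock siRNA. Peaks of 2000 bp or more numbered 429 after EP400 siRNA (2.04% of its list) and 1533 after mock siRNA (4.98%), and the widest was 5800 bp after EP400 siRNA and 12400 bp after mock siRNA. The narrow end was also thinner after EP400 siRNA, where 4351 peaks (20.7%) were 100 bp, the smallest step of the lists, against 7786 (25.3%) after mock siRNA.

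Where the lists overlapped, the peak after EP400 siRNA was usually the narrower. In 13612 places 1 peak of each list overlapped 1 peak of the other and no more. In these pairs the median width was 700 bp after EP400 siRNA and 1000 bp after mock siRNA, the EP400 siRNA peak was narrower in 77.9%, equal in 8.87% and wider in 13.2%, and it lay wholly inside the mock peak in 75.7%. The midpoints differed by a median of 100 bp, so the narrower peak lay about the same centre as the wider. At 761 mock peaks the signal was split over 2 or more EP400 siRNA peaks, against 233 EP400 siRNA peaks over 2 or more mock peaks.

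The share of peaks with a partner differed with width. Of EP400 siRNA peaks, 30.5% of those of 100 bp and 99.3% of those of 1000 bp or more overlapped a mock peak. Of mock peaks, 5.54% of those of 100 bp and 94.5% of those of 1000 bp or more overlapped an EP400 siRNA peak. The largest gap between the lists was in the middle widths, where 69.9% of EP400 siRNA peaks of 300 to 400 bp had a mock partner and 25.4% of mock peaks of that width had an EP400 siRNA partner.

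**Figure D2:**
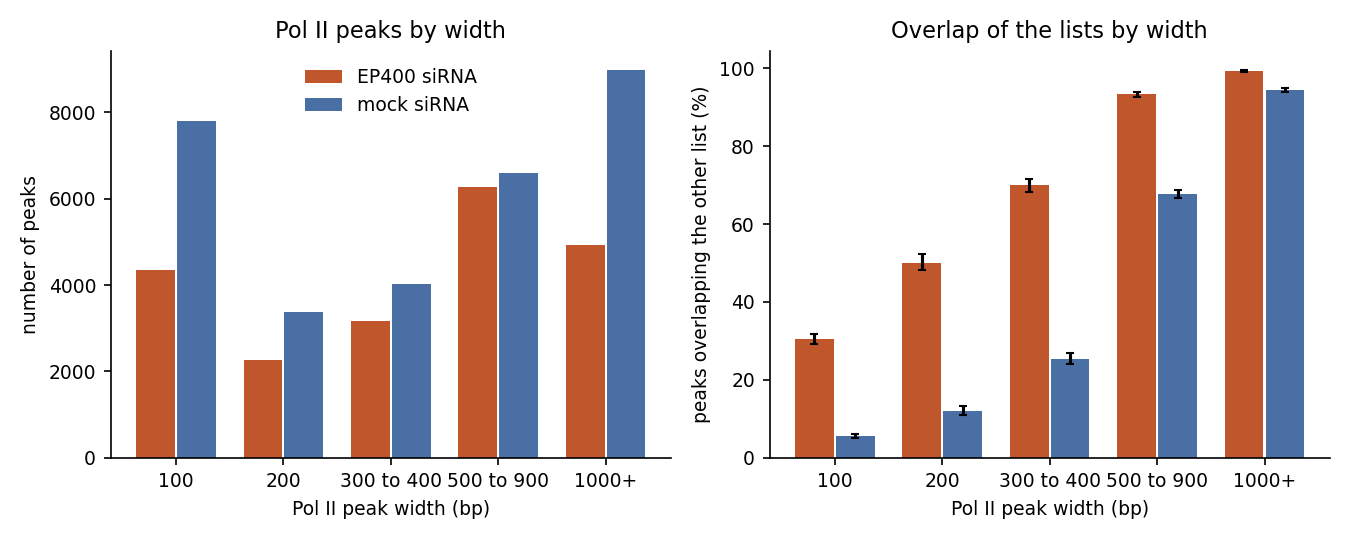
Number of Pol II peaks (left) and percent that overlap the other list by 1 bp or more (right), by peak width in bp, for EP400 siRNA cells and mock siRNA cells; error bars are Wilson 95% intervals, which cover counting error alone. Overlap climbs with width in both lists and is 99.3% for EP400 siRNA peaks and 94.5% for mock peaks of 1000 bp or more.

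The peaks without a partner differed in kind between the lists. The 5554 peaks found only after EP400 siRNA had a median width of 100 bp and lay a median of 3401 bp from the nearest mock peak, and the 15949 found only after mock siRNA had a median width of 200 bp and lay a median of 7001 bp from the nearest EP400 siRNA peak. A peak of 1000 bp or more was found 36 times among the EP400 siRNA peaks without a partner and 496 times among the mock ones. H3K18ac overlapped 2.03% of the peaks found only after EP400 siRNA and 29.8% of those found only after mock siRNA. MED26 of the same condition overlapped 1.71% of the peaks found only after EP400 siRNA and 18.3% of those found only after mock siRNA, and EP400 peaks overlapped 0.126% of those found only after EP400 siRNA and 1.97% of those found only after mock siRNA. Over all widths together, peaks with a partner carried more of these marks, with MED26 of the same condition at 67.2% of EP400 siRNA peaks and 76.7% of mock peaks, and H3K18ac at 66.0% of EP400 siRNA peaks and 71.2% of mock peaks. Within a width class the lists parted. After EP400 siRNA the gap held at every width: H3K18ac overlapped 27.4% of peaks of 100 bp with a partner and 1.85% of those without, and 90.6% and 2.78% of peaks of 1000 bp or more. After mock siRNA it turned round among narrow peaks, where H3K18ac overlapped 6.50% of peaks of 100 bp with a partner and 16.8% of those without, 10.5% and 26.6% at 200 bp, and 22.4% and 37.7% at 300 to 400 bp. From 500 to 900 bp the mock shares were 58.1% with a partner and 56.8% without, and at 1000 bp or more 90.2% and 77.4%. MED26 on mock peaks was likewise lower with a partner than without at 100 bp (3.25% and 5.44%) and 200 bp (7.56% and 12.5%), and higher at 1000 bp or more (93.6% and 73.6%).

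Each peak was placed at a locus end (within 2 kb of either end of a locus, a cluster of overlapping transcripts in the RNA table), else at an enhancer (a stretch shared by mock H3K4me1 and H3K18ac), else within a locus, else between genes. Strand is not given, so a locus end can be a start or an end of transcription. Locus ends held 13183 peaks after EP400 siRNA and 15682 after mock siRNA, a ratio of 0.841, and their covered length stood at a ratio of 0.670, 9.67 Mb against 14.4 Mb. Peak numbers after EP400 siRNA and after mock siRNA were 4811 and 7680 within loci and 2720 and 5142 between genes, and stood at ratios of 0.626 and 0.529. Enhancers differed most, with 273 peaks after EP400 siRNA and 2256 after mock siRNA, a ratio of 0.121. MED26 peaks at the same 4 places stood at ratios of 0.910 at locus ends, 1.02 within loci, 0.948 between genes and 0.511 at enhancers, so enhancers had the lowest ratio for both proteins, and the Pol II ratio was the lower of the pair at all 4.

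Retained means that a mock peak meets an EP400 siRNA peak of the same antibody. Of mock Pol II peaks, 68.5% were retained at locus ends (95% interval 67.8 to 69.3), 28.1% within loci (27.1 to 29.1), 28.6% between genes (27.4 to 29.9) and 19.2% at enhancers (17.7 to 20.9). Mock MED26 peaks were retained at 66.9% at locus ends, 35.0% at enhancers, 32.4% within loci and 29.6% between genes, so for MED26 enhancers were not the lowest place by retention, unlike by the ratio of peak numbers. Median widths of mock Pol II peaks were 800 bp at locus ends, 400 bp at enhancers and 200 bp at the other 2 places. Averaged over the 5 width classes the gap from locus ends was 11.2 points within loci (2.59 to 20 over the classes), 10.1 between genes (5.83 to 16.4) and 30.7 at enhancers (8.35 to 61.1). Enhancers were also the lowest place for Pol II among the widest peaks: of mock peaks of 1000 bp or more, 61.6% were retained at enhancers (297 of 482), against 94.5% within loci and 90.2% between genes. In the other direction, 83.9% of EP400 siRNA peaks at locus ends, 91.2% at enhancers, 50.9% within loci and 61.5% between genes overlapped a mock peak. At enhancers only 24 EP400 siRNA peaks had no mock partner, against 1822 mock peaks with no EP400 siRNA partner.

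**Figure D3:**
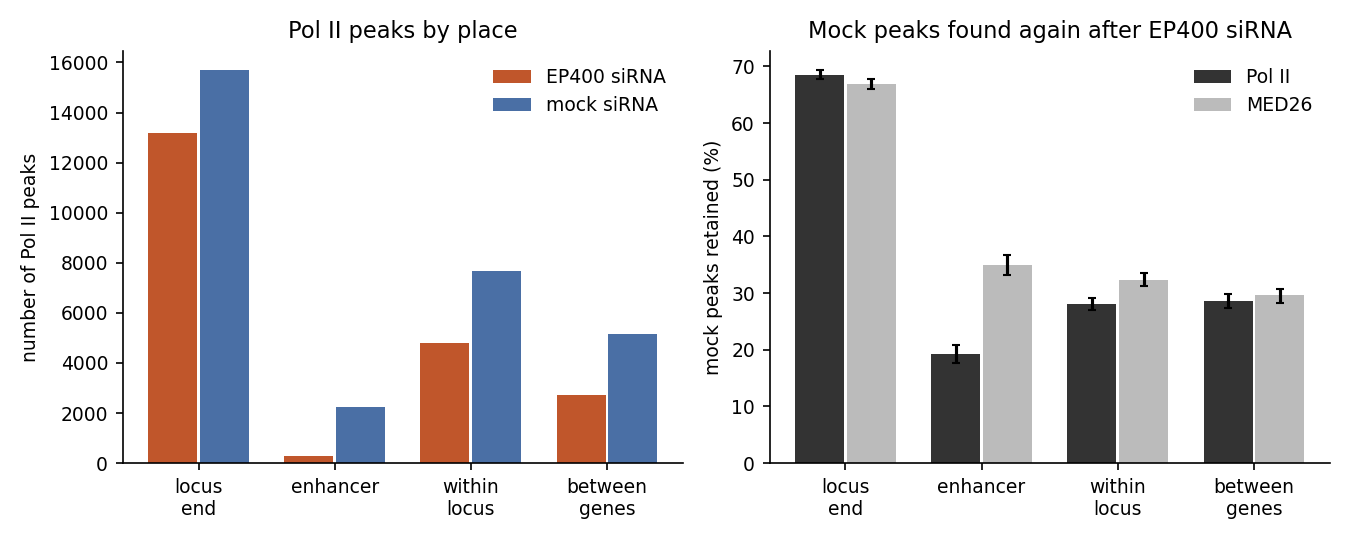
Left, Pol II peaks of EP400 siRNA cells and mock siRNA cells at the 4 places. Right, percent of mock Pol II peaks and mock MED26 peaks that meet an EP400 siRNA peak of that antibody, with Wilson 95% intervals; the Pol II share is 19.2% at enhancers and 68.5% at locus ends.

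Among mock peaks with H3K18ac, those that also had H3K4me1 were retained less often. Away from locus ends, 19.2% of mock Pol II peaks at stretches with both marks were retained, against 53.2% of those with H3K18ac and no H3K4me1 stretch (2176 of 4094), 48 of 480 with H3K4me1 alone and 16.2% with neither mark. The same order held at locus ends, where 91.1% of mock peaks with H3K18ac alone, 68.8% with both marks, 43.1% with neither and 25.6% with H3K4me1 alone were retained. Median widths of these mock peaks at locus ends were 1200 bp with H3K18ac alone and 1500 bp with both marks. Away from locus ends the widths ran the other way, 600 bp with H3K18ac alone and 400 bp with both marks, and were 200 bp with H3K4me1 alone and 100 bp with neither.

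Seen from the enhancers, 277 of 24388 stretches away from locus ends overlapped Pol II after EP400 siRNA (1.14%) and 2392 did after mock siRNA (9.81%). MED26 overlapped 1342 stretches after EP400 siRNA (5.50%) and 2625 after mock siRNA (10.8%). Of 840 stretches that had both proteins in mock cells and no Pol II peak after EP400 siRNA, 364 still had a MED26 peak (43.3%, 95% interval 40.0 to 46.7). Stretches with mock MED26 kept Pol II in 15.9% of cases (159 of 999) and those without it in 7.04% (98 of 1393). Those with an EP400 peak kept it in 19.9% (30 of 151) and those without in 10.1% (227 of 2241). Distance to the nearest locus end made little difference, with 21.7%, 18.1% and 18.2% of mock enhancer peaks retained at under 10 kb, 10 to 50 kb and 50 kb or more, intervals that overlap. In the 367 one-to-one pairs at enhancers the median width was 500 bp after EP400 siRNA and 1200 bp after mock siRNA, and the EP400 siRNA peak was narrower in 91.6%.

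At enhancers, the widest peak without a partner was 2900 bp after EP400 siRNA, within PLXNB2, and 3100 bp after mock siRNA. The mock peak lay 6903 bp from TTYH3, which encodes a chloride channel, on chromosome 7 from 2661601 to 2664700, and TTYH3 RNA was 121 FPKM after EP400 siRNA and 405 FPKM after mock siRNA. Another mock peak, of 3000 bp, lay 21863 bp from CBX7, a Polycomb protein, on chromosome 22 from 39570401 to 39573400, and CBX7 RNA was 6.22 FPKM after EP400 siRNA and 21 FPKM after mock siRNA. Both places had EP400, MED26 and H3K18ac peaks, with MED26 called in both conditions. CBX7 kept Pol II at its own right end, in a peak of 1500 bp after EP400 siRNA and 1600 bp after mock siRNA. A mock peak of 2700 bp within ZMIZ1, a transcriptional coregulator, and one of 2300 bp within NFIC, a nuclear factor I protein, also had no partner. A further mock peak of 3000 bp with no partner lay in a locus of 4 genes, of which CDH23, a cadherin, had RNA at 0.582 FPKM after EP400 siRNA and 2.32 FPKM after mock siRNA and C10orf105 and VSIR stayed under 1 FPKM in both. Lower RNA was not particular to genes near lost enhancer peaks. The median log2 RNA ratio was -0.47 in the 938 genes nearest to a lost enhancer peak and to no retained one, -0.86 in the 436 nearest to a retained one and -0.14 in the 10292 nearest to neither, and RNA was at least 2-fold lower in 27.5%, 42.2% and 21.7% of them. Median mock RNA of these groups was 10.5, 14.2 and 7.26 FPKM. Over all genes the median log2 RNA ratio was 0.45 in the lowest quintile of mock RNA level and -1.04 in the highest. The groups were not matched by RNA level.

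Locus ends could be oriented by H3K18ac where exactly 1 end carried it. In 7033 such loci of 10 kb or more, Pol II was at the acetylated end in 86.7% after EP400 siRNA and 92.5% after mock siRNA, and 93.5% of the mock ends kept it. At the other end Pol II was found in 8.90% after EP400 siRNA and 12.3% after mock siRNA, and 52.3% kept it. New occupancy was rare at acetylated ends, with 19 loci gaining it after EP400 siRNA, and less rare at the other ends, with 172.

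Around the acetylated end the difference grew with distance over the first kilobases. In 3815 loci with no other locus within 5 kb, Pol II peaks covered a mean of 66.1% of the first 500 bp inside the locus after EP400 siRNA and 76.9% after mock siRNA, a ratio of 0.860. The 500 bp outside stood at 45.1% after EP400 siRNA and 62.1% after mock siRNA (ratio 0.727). The next 500 bp outward stood at 10.1% after EP400 siRNA and 20.2% after mock siRNA (ratio 0.501). Inside, the ratio was 0.685 at 500 to 1000 bp, 0.604 at 1000 to 1500 bp and 0.369 at 3000 to 3500 bp, its lowest, and then 0.468, 0.583 and 0.511 in the 3 bins up to 5 kb. At equal distance up to 2 kb the ratio was lower outside the locus than inside it.

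**Figure D4:**
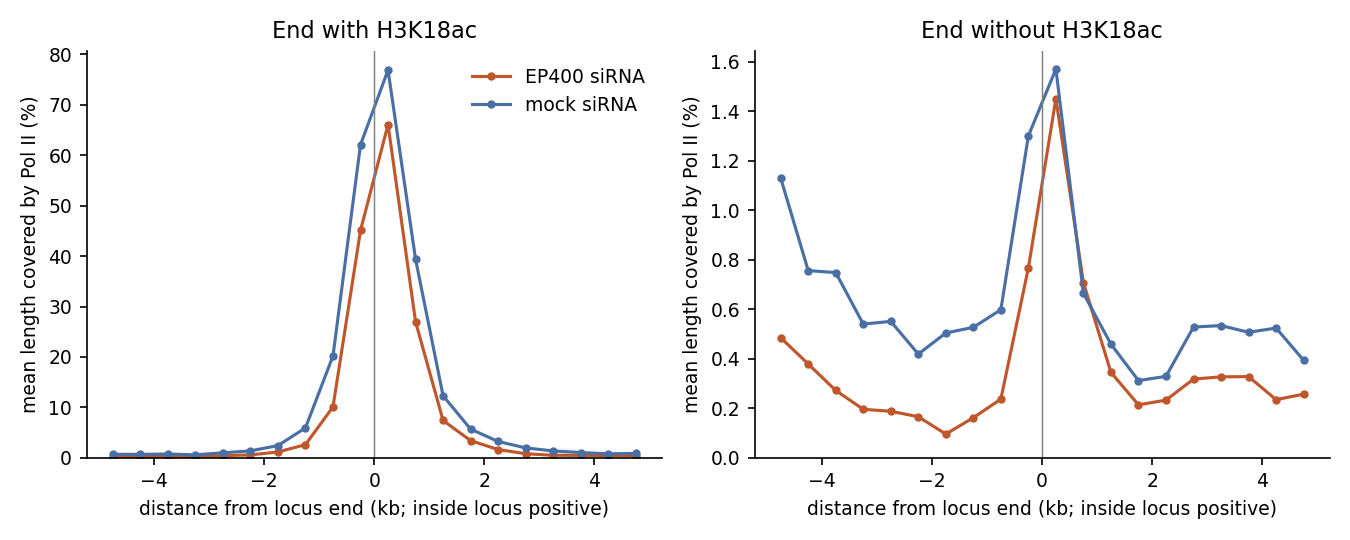
Mean percent of each 500 bp bin covered by Pol II peaks against distance from the locus end in kb, in 3815 loci with H3K18ac at exactly 1 end, for EP400 siRNA cells and mock siRNA cells; the vertical scales of the panels differ. At the end with H3K18ac the EP400 siRNA line is below the mock line in every bin, at 66.1% against 76.9% in the highest.

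Further into the locus fewer genes carried peaks at all. This was read in 3198 such loci, taken because the acetylated end had a Pol II peak in both lists. Their mean covered length in the first 1 kb was 555 bp after EP400 siRNA and 675 bp after mock siRNA. A peak was there in 96.3% of loci after EP400 siRNA and 97.5% after mock siRNA, shares set in large part by that choice. From 2 to 5 kb inside it was 21.4 bp after EP400 siRNA and 45.0 bp after mock siRNA, with a peak in 4.63% of loci after EP400 siRNA and 8.60% after mock siRNA, a ratio of 0.476. From 5 to 10 kb it was 15.4 bp after EP400 siRNA and 30.1 bp after mock siRNA, a ratio of 0.511. Over all loci, the part beyond 2 kb from both ends (1212 Mb) was covered for 2.39 Mb after EP400 siRNA (0.197%) and 4.50 Mb after mock siRNA (0.372%), a ratio of 0.530. The peaks there numbered 5313 after EP400 siRNA with a mean width of 497 bp and 9553 after mock siRNA with a mean width of 557 bp.

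Read by gene, most ends kept Pol II. Of 11666 genes expressed at a mean FPKM of at least 1, 9490 had a Pol II peak at a locus end in both conditions, 782 after mock siRNA alone, 101 after EP400 siRNA alone and 1293 in neither. Lost ends made 7.61% of the 10272 genes with Pol II in mock cells, and gained ends made 7.25% of the 1394 without it. Genes with an EP400 peak at an end kept Pol II in 95.9% of cases (95% interval 95.3 to 96.5) and those without in 5512 of 6126 cases (89.2 to 90.7%). The share was 94.9% with H3K18ac at an end and 80.1% without. It was 91.2% in the lowest quintile of mock RNA level and 93.8% in the highest. Of the 530 genes that lost Pol II at their ends and had MED26 there in mock cells, 84.2% still had MED26 after EP400 siRNA.

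RNA ratios of genes without the peak after EP400 siRNA were near those of all genes. The median log2 RNA ratio was -0.10 in genes that lost Pol II at their ends, -0.23 in those that kept it, -0.50 in those that gained it, 0.01 in those with none and -0.20 in all. After scaling both libraries to equal summed FPKM these medians were 0.54, 0.42, 0.09, 0.64 and 0.45, so signs of small ratios hang on the scaling and the order does not. RNA was at least 2-fold lower in 22.9% of all genes and at least 2-fold higher in 6.11%. Among genes that lost Pol II the share with lower RNA was 21.5% and that with higher RNA 7.03%, near those of all genes. In the lowest quintile of mock RNA level the medians were 0.51 in genes that lost Pol II and 0.44 in those that kept it, and in the highest quintile -0.98 and -1.05. Quintile 2 had the reverse order, with -0.13 in genes that lost it and 0.16 in those that kept it. The medians were 0.01 and -0.15 in quintile 3 and -0.41 and -0.71 in quintile 4. Seen from the RNA, 10.2% of genes with at least 2-fold higher RNA lost Pol II at an end (95% interval 7.91 to 13) and 6.79% of those with at least 2-fold lower RNA did (5.87 to 7.85). After scaling to equal sums, 243 genes with at least 2-fold higher RNA lost Pol II and 2629 kept it. Of those with at least 2-fold lower RNA, 44 lost it and 519 kept it, so the shares lay closer together.

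The length covered by Pol II over a locus and 2 kb on each side was shorter after EP400 siRNA at most genes. In 10092 genes with a mean of 500 bp or more, the median was 1100 bp after EP400 siRNA and 1600 bp after mock siRNA, and 87.2% were shorter after EP400 siRNA. The length was at least 2-fold lower at 2918 genes (28.9%) and at least 2-fold higher at 52 (0.515%). The median log2 ratio of covered length, with 100 bp added to each side, was -0.53. Across these genes the log2 ratio of covered length and that of RNA had Spearman's rho 0.16 and Pearson's r 0.12, a description across genes that share 2 libraries per measure. Genes whose covered length ratio was -2 to -1 had a median log2 RNA ratio of -0.57, and those at -0.5 to 0 had 0.01, but the 139 genes above 0.5 had -0.85, so the relation was not steady. These classes also differed in mock RNA level, with medians of 14.6, 6.03 and 5.65 FPKM. Over all genes the median log2 RNA ratio was 0.45 in the lowest quintile of mock RNA level and -1.04 in the highest. The part of RNA level in the relation was not tested.

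Replication-dependent histone genes, which are transcribed in S phase from clusters, had the lowest covered length ratio of the 14 lists with a value. The covered length was at least 2-fold lower at 16 of 20 measured members, against 28.9% of all genes, with medians of 550 bp after EP400 siRNA and 2650 bp after mock siRNA and a median log2 ratio of -2.25. H3C4 and H2AC7, histone H3 and H2A genes of 1 locus, lay under a single mock peak of 5300 bp, where EP400 siRNA cells had 2 peaks of 500 bp each. H2BC8, a histone H2B gene, had 100 bp after EP400 siRNA and 2700 bp after mock siRNA. H2AC20 and H2AC21, H2A genes of another cluster, had 2700 bp each after EP400 siRNA against 3361 bp and 3500 bp after mock siRNA, so the list was not uniform. The median log2 RNA ratio of the 24 expressed members was -0.37, and 0.22 after scaling to equal sums. Histone genes are near-identical copies, so their FPKM may be split among them, and neighbours share peaks.

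Mitosis genes had shorter Pol II cover at most members. The covered length over the locus and its flanks was at least 2-fold lower at 21 of 28 measured members, against 28.9% of all genes, with medians of 550 bp after EP400 siRNA and 1300 bp after mock siRNA, yet 27 of 29 expressed members kept a peak at an end. PLK1, a mitotic kinase, had 500 bp after EP400 siRNA and 2900 bp after mock siRNA, 1400 bp of the mock cover lying more than 2 kb inside a locus it shares, with RNA at 73.9 FPKM after EP400 siRNA and 231 FPKM after mock siRNA. NDC80, a kinetochore protein, had 100 bp after EP400 siRNA and 1000 bp after mock siRNA, with RNA at 12.5 FPKM after EP400 siRNA and 8.87 FPKM after mock siRNA. KIF23, a cytokinesis motor, had 1000 bp after EP400 siRNA and 1300 bp after mock siRNA. The median log2 RNA ratio of the list was -0.01, above the -0.20 of all genes.

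Cytosolic ribosomal protein genes, among the most highly expressed, lost Pol II at an end in 3 of 58 genes that had it in mock cells, near the 7.61% of all genes. The covered length was at least 2-fold lower at 27 of 56, against 28.9% of all genes, with medians of 1000 bp after EP400 siRNA and 1900 bp after mock siRNA. RPS2 had 1939 bp after EP400 siRNA and 5666 bp after mock siRNA, with RNA at 884 FPKM after EP400 siRNA and 2700 FPKM after mock siRNA. RPL3 had 700 bp after EP400 siRNA and 3514 bp after mock siRNA, with RNA at 680 FPKM after EP400 siRNA and 656 FPKM after mock siRNA. A mock peak of 3300 bp that begins 587 bp from the RPL3 locus was among the widest of all mock peaks with no partner. RPL6, RPL24 and RPL34 lost their end peaks, of 1000, 500 and 600 bp in mock cells.

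Immediate-early genes, which answer growth signals within minutes, stood at the other side. The covered length was at least 2-fold lower at 1 of 22 measured members, the mRNA decay factor ZFP36, against 28.9% of all genes, with medians of 2600 bp after EP400 siRNA and 3350 bp after mock siRNA and a median log2 ratio of -0.32, above the -0.53 of all genes. FOSL1, an AP-1 subunit, had 3400 bp after EP400 siRNA and 4200 bp after mock siRNA, with RNA at 139 FPKM after EP400 siRNA and 73.3 FPKM after mock siRNA. JUNB, another AP-1 subunit, had 4200 bp after EP400 siRNA and 4391 bp after mock siRNA. MYC, a growth regulator, had 3200 bp after EP400 siRNA and 4100 bp after mock siRNA, with RNA at 164 FPKM after EP400 siRNA and 64.4 FPKM after mock siRNA. FOSL1, JUNB and MYC were chosen after their values were seen. The largest difference of the list was at FOSL2, with 3400 bp after EP400 siRNA and 6500 bp after mock siRNA. FOSL2 lost its peak at an end, in a locus it shares. MCL1, also in a shared locus, had 3700 bp after EP400 siRNA and 5400 bp after mock siRNA. IER2 had 3800 bp after EP400 siRNA and 6300 bp after mock siRNA. Its RNA was nearly equal, 70.1 FPKM after EP400 siRNA and 69.7 FPKM after mock siRNA. Mock cover of the list was wide, 3350 bp against 1600 bp over all genes.

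Interferon-stimulated genes combined higher RNA with few or missing Pol II peaks. Of 24 expressed members 16 had at least 2-fold higher RNA after EP400 siRNA, against 6.11% of all genes, with a median log2 ratio of 1.27. After scaling to equal sums 19 were higher, against 3351 of all 11666 genes. Of the 14 with mock Pol II at an end, 6 lost it (42.9%, against 7.61% of all genes), and 3 of those 6 had at least 2-fold higher RNA. Mock peaks covered 100 to 700 bp at those 6 genes. Over all locus ends, 10.1% of mock peaks of 100 bp were retained. The share was 78.1% at 500 to 900 bp and 97.1% at 1000 bp or more. The genes were not matched by peak width, so the part of width in the 42.9% was not tested. OASL, an OAS-family protein, had no covered length after EP400 siRNA against 300 bp after mock siRNA, with RNA at 75.6 FPKM after EP400 siRNA and 8.40 FPKM after mock siRNA. RIGI, a sensor of viral RNA, had none after EP400 siRNA against 300 bp after mock siRNA, with RNA at 5 FPKM after EP400 siRNA and 0.357 FPKM after mock siRNA. IRF9, part of the interferon-activated factor ISGF3, had none after EP400 siRNA against 700 bp after mock siRNA, with RNA at 29.9 FPKM after EP400 siRNA and 19.98 FPKM after mock siRNA. At 10 expressed members no peak touched the locus or its 2 kb in either condition, and 8 of them had at least 2-fold higher RNA. IFIT3 and OAS1 were among them, with RNA at 26.3 and 23.6 FPKM after EP400 siRNA and 1.78 and 1.39 FPKM after mock siRNA. The covered length was at least 2-fold lower at 1 of the 4 members with a mean of 500 bp or more, ISG20. OAS3 was the only expressed member with a longer covered length after EP400 siRNA, 500 bp, than after mock siRNA, 400 bp.

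NF-kB and inflammatory genes likewise had higher RNA beside missing peaks. Of 20 expressed members 12 had at least 2-fold higher RNA, against 6.11% of all genes. With sums made equal 14 were higher, against 3351 of all 11666 genes. Of the 10 with mock Pol II at an end, 3 lost it, against 7.61% of all genes. Mock peaks covered 200 to 500 bp at those 3 genes, and the part of peak width in their loss was not tested. The covered length was at least 2-fold lower at 2 of 10, below the 28.9% of all genes. LIF, a cytokine, had the largest difference, 100 bp after EP400 siRNA against 3105 bp after mock siRNA, with RNA at 26.1 FPKM after EP400 siRNA and 56.1 FPKM after mock siRNA, and MED26 at its end was called in mock cells alone. CSF2, a granulocyte-macrophage growth factor, lost a peak of 500 bp while MED26 stayed called there, with RNA at 70.6 FPKM after EP400 siRNA and 5.45 FPKM after mock siRNA. ESM1, a secreted proteoglycan, lost a peak of 200 bp, with RNA at 32.0 FPKM after EP400 siRNA and 0.171 FPKM after mock siRNA. CXCL8, a chemokine, had no peak in either condition, with RNA at 23.7 FPKM after EP400 siRNA and 0.435 FPKM after mock siRNA. CXCL3, another chemokine, kept its peaks at 600 bp after EP400 siRNA and 800 bp after mock siRNA, with RNA at 12.5 FPKM after EP400 siRNA and 0.543 FPKM after mock siRNA. CSF2, ESM1, CXCL8 and CXCL3 were chosen after their values were seen, as were the interferon genes other than IRF9 and IFI6.

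Stress response genes had differing RNA beside shorter cover. None of the 21 unfolded-protein or amino-acid response genes and none of the 14 heat shock genes with mock Pol II at an end lost it, counts that are near the 7.61% of all genes. The covered length was at least 2-fold lower at 6 of 22 and 4 of 16 of them, also near the 28.9% of all genes. RNA was at least 2-fold higher at 7 and lower at 0 of the 23 expressed members of the first list. In the second list RNA was higher at 5 and lower at 5 of 16. Of all genes 6.11% were higher and 22.9% lower. After scaling to equal sums 16 were higher and 0 lower in the first list, and 8 and 2 in the second. Of all 11666 genes 3351 were then higher and 623 lower. DDIT3, a transcription factor of endoplasmic reticulum stress, had 900 bp after EP400 siRNA and 2800 bp after mock siRNA in a locus it shares. DDIT3 RNA was at 32.8 FPKM after EP400 siRNA and 6.97 FPKM after mock siRNA. ATF4, the regulator of the amino acid response, had 1700 bp after EP400 siRNA and 3091 bp after mock siRNA, with RNA at 403 FPKM after EP400 siRNA and 196 FPKM after mock siRNA. HSP90AB1, a cytosolic chaperone, had 1700 bp after EP400 siRNA and 3300 bp after mock siRNA, with RNA at 409 FPKM after EP400 siRNA and 238 FPKM after mock siRNA. At these 3 genes, of which ATF4 was chosen after its values were seen, shorter cover stood beside higher RNA, also after scaling to equal sums. The cover at DDIT3 cannot be assigned to that gene alone. Others went the other way. HSF1, the heat shock factor, had the largest difference of its list, 6100 bp after EP400 siRNA and 12000 bp after mock siRNA in a locus it shares, with a log2 RNA ratio of -1.08. HSPB1 stood at -2.91. SHMT2, a mitochondrial enzyme of serine metabolism, had 600 bp after EP400 siRNA and 2200 bp after mock siRNA in a locus it shares. Its log2 RNA ratio was -0.44, which turned to 0.33 after scaling to equal sums.

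Genes of the transcription machinery had at least 2-fold lower cover at shares near the 28.9% of all genes or somewhat above it. Of 31 expressed Mediator genes 6 lost Pol II at an end (19.4%, against 7.61% of all genes), MED6, MED18, MED21, MED24, MED27 and MED28. Their mock peaks covered 300 to 600 bp, and the part of peak width in that share was not tested. The covered length was at least 2-fold lower at 9 of 23 Mediator genes. MED15, a tail subunit, had 500 bp after EP400 siRNA and 3719 bp after mock siRNA, with RNA at 47.2 FPKM after EP400 siRNA and 89.5 FPKM after mock siRNA. MED26 itself had 1800 bp after EP400 siRNA and 2083 bp after mock siRNA, with RNA at 4.81 FPKM after EP400 siRNA and 8.54 FPKM after mock siRNA. Of 11 Pol II subunit genes 4 were that much lower, among them POLR2L with 2909 bp after EP400 siRNA and 6009 bp after mock siRNA. Of 29 pausing and elongation factor genes 12 were, and HEXIM2, an inhibitor of P-TEFb, had 700 bp after EP400 siRNA and 2806 bp after mock siRNA. Of 14 TIP60-EP400 complex genes 4 were. KAT5, the acetyltransferase of the complex, had 1400 bp after EP400 siRNA and 3700 bp after mock siRNA in a locus it shares. No member of these 4 lists had at least 2-fold more covered length. Among the marker lists, the covered length was at least 2-fold lower at 6 of 12 mesenchymal and osteoblast genes and 3 of 3 epithelial genes, 2 of which, KRT8 and KRT18, share a locus and its peaks, and no haematopoietic or endothelial gene had enough cover to be counted.

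**Figure D5:**
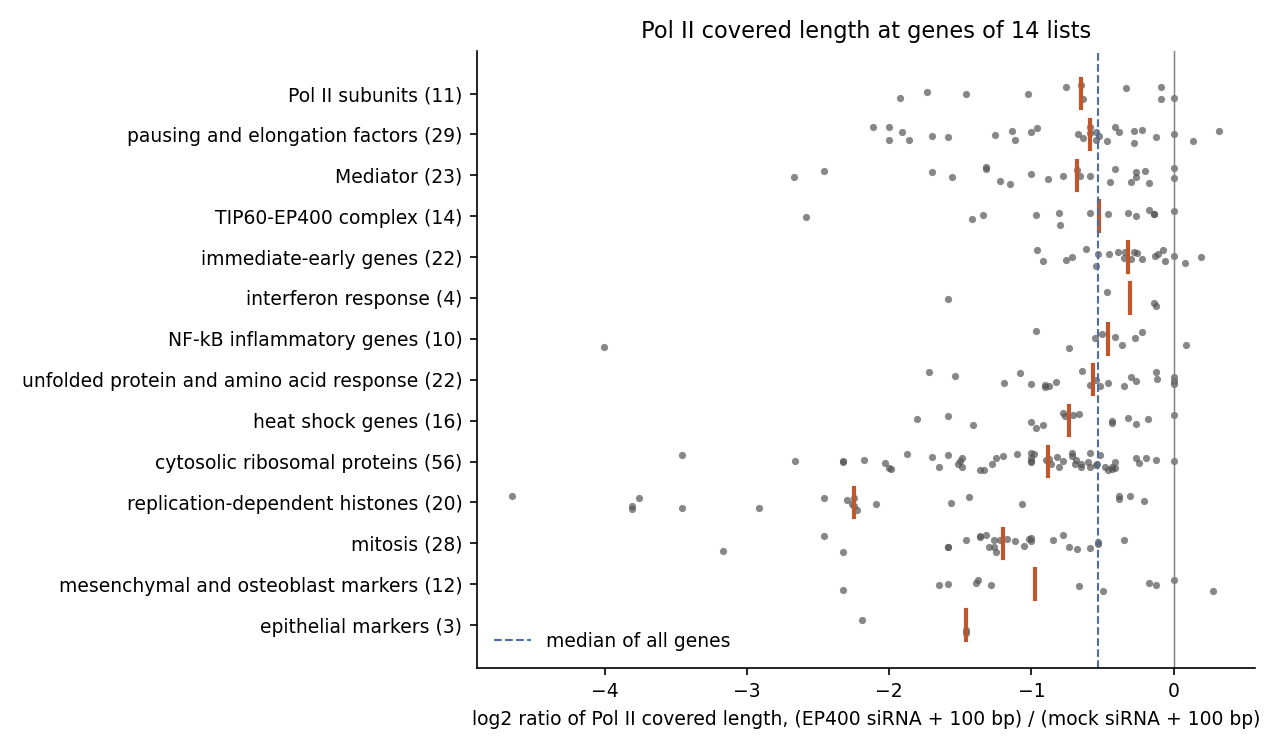
Log2 ratio of Pol II covered length over a locus and 2 kb on each side, EP400 siRNA over mock siRNA with 100 bp added to each, for genes of 14 lists (points, 1 per gene; number in brackets) with the list median (bar) and the median of all 10092 genes (dashed line at -0.53). Histone genes have the lowest median, -2.25, and immediate-early genes stand at -0.32.

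The largest gains of covered length came with more peaks at some genes and with wider cover at others. CAPN15, a calpain-family protein, had 17 peaks and 8036 bp after EP400 siRNA, against 4 peaks and 3245 bp after mock siRNA. Its peak at the left end spanned 1900 bp after EP400 siRNA against 3400 bp after mock siRNA, and the gain lay inside the locus, where peaks more than 2 kb from both ends covered 4700 bp after EP400 siRNA against 300 bp after mock siRNA. INTS1, an Integrator subunit, had 22 peaks and 11500 bp after EP400 siRNA against 21 peaks and 6888 bp after mock siRNA, and PLXNB2, a semaphorin receptor, had 24 peaks and 9200 bp after EP400 siRNA against 12 peaks and 6700 bp after mock siRNA. HELZ2, a helicase, had 12 peaks and 4600 bp after EP400 siRNA against 3 peaks and 2000 bp after mock siRNA, and OPLAH, an enzyme of glutathione turnover, had 8 peaks and 6134 bp after EP400 siRNA against 2 peaks and 2100 bp after mock siRNA. PLEC, which encodes the cytoskeletal linker plectin, had fewer peaks, 18 with 37886 bp after EP400 siRNA against 22 with 33186 bp after mock siRNA. RNA of all 6 was lower after EP400 siRNA, with log2 ratios of -1.80 at PLXNB2 to -0.49 at HELZ2. After scaling to equal sums HELZ2 turned to 0.21, and CAPN15 and PLEC, both at -0.83 before, stood at -0.08 and -0.06. INTS1, OPLAH and PLXNB2 then stood at -0.53, -0.88 and -1.05.

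Genes with the largest losses were chosen by the difference in bp, so their long mock cover was set by that rule. ZMIZ1, the coregulator named above, had 3100 bp after EP400 siRNA and 16809 bp after mock siRNA, and SEPTIN9, a septin of the cytoskeleton, had 3900 bp after EP400 siRNA and 16100 bp after mock siRNA. GNG7, a G protein gamma subunit, had 3800 bp after EP400 siRNA and 15400 bp after mock siRNA. CLPTM1L, a membrane protein, had 2300 bp after EP400 siRNA and 11600 bp after mock siRNA. LFNG, a glycosyltransferase that acts on Notch, had 8700 bp in 10 peaks after EP400 siRNA and 17248 bp in 4 peaks after mock siRNA, where a single peak of 12400 bp, the widest of either list, met 5 peaks of the EP400 siRNA list. These 5 genes kept Pol II at an end, and their log2 RNA ratios ran between -1.48 at CLPTM1L and -0.95 at ZMIZ1. After scaling to equal sums the ratios ran between -0.71 at CLPTM1L and GNG7 and -0.26 at ZMIZ1.

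Among the ends that gained Pol II, 3 genes alone in their locus were named by their RNA ratio. TRIML2, a TRIM-like protein, had a peak of 100 bp after EP400 siRNA and none after mock siRNA, with RNA at 16.4 FPKM after EP400 siRNA and 2.11 FPKM after mock siRNA. THOC3, a subunit of the mRNA export complex THO, likewise had 100 bp after EP400 siRNA and none after mock siRNA. TGFBI, an extracellular matrix protein, had a peak of 200 bp at an end after EP400 siRNA, and 500 bp of peaks inside the locus and none at an end after mock siRNA, with RNA at 151 FPKM after EP400 siRNA and 46.0 FPKM after mock siRNA. PRKAR1A and WIPI1 share 1 locus, and TXNRD1 shares its locus with another gene, so their peaks cannot be assigned to a gene. Among ends that lost Pol II, RARRES2, the secreted protein chemerin, and TNNT2, cardiac troponin T, had mock peaks of 100 bp, and OLFML3, a secreted glycoprotein, had 200 bp. S100A4, a calcium-binding protein, lost 900 bp, with RNA at 13 FPKM after EP400 siRNA and 116 FPKM after mock siRNA, and it shares its locus. Its family member S100A2 lost 2 peaks of 1400 and 3500 bp, the second the widest mock peak with no partner, and MED26 stayed called there, with RNA at 445 FPKM after EP400 siRNA and 653 FPKM after mock siRNA.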

How the data were processed

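The members and the gene lists were chosen with earlier results of these data known, and the 500 bp minimum on covered length was set after seeing the files. ChIP peak lists were deposited by the authors as hg19 coordinates counted from 1, in steps of 100 bp for Pol II, with no score. The build was hg19 and the tools were TopHat2 2.0.8, Bowtie 0.12.9 and Cuffdiff 2.0.2, per the submitters' processing notes. No peak caller, threshold or control is given in the sources used here, and the inputs were not analysed here. RNA values are FPKM per RefSeq transcript, deposited by the authors with confidence limits, per the file headers. FPKM are not counts, and depth is unknown for every library.

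Rows under 200 nt (2116 of 48669) were left out, FPKM were summed per symbol (97.7% of rows had one, from a RefSeq table), and 122 genes with a failed estimate were dropped. Ratios use a pseudocount of 1 and genes at a mean of at least 1 FPKM. Loci come from the same table, and 14.6% of 20146 hold 2 or more genes, whose peaks cannot be told apart. Peaks were compared by 1 bp of overlap. With 1 library a condition there was no test, and Wilson 95% intervals cover counting error alone. The named genes are EP400; the 6 largest gains and losses of covered length among genes alone in their locus; the 6 gained ends with the highest and the 6 lost ends with the lowest RNA ratio at a mean of at least 5 FPKM; at most 3 members from each of 15 lists (411 entries) by difference in covered length; and loci at the 4 widest peaks of each list. A gene that this rule takes is not reported here. Other genes named were chosen after their values were seen. The enhancer class uses marks of mock cells alone. Promoters are RefSeq's, GRCh38.p14; 77.9% of genes had one, so promoter letters were not compared between gene sets. The overlap code was tested on simulated intervals. Python 3.11.15, numpy 2.4.6, pandas 2.3.3, scipy 1.17.1 and matplotlib 3.10.9 were used.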

Additional observations from a re-analysis of the deposited data

How the results depend on the processing

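The 10 values that answer a comparison were recomputed under 13 alternatives, 130 values in all. Shares and counts have no direction to turn. The pseudocount, the FPKM filter and RNA scaling leave peak numbers, overlap and retention unchanged by construction. The ratio of covered length inside loci stayed at 0.507 to 0.597. The median RNA difference between genes that lost and kept Pol II stayed at 0.03 to 0.29, so neither turned its direction. Cutting the mock list to the 20987 widest peaks set the ratio of peak numbers to 1.0 by construction; peaks of 300 bp or more gave 0.734 and joining peaks across 1 kb gave 0.744, against 0.682. The share of EP400 siRNA peaks that overlap a mock peak was 70.9%, 87.5% and 77.8% under these 3 settings, against 73.5%. Retention at locus ends was 81.6%, 76.2% and 80.2% under the same settings and 76.4% and 61.0% with ends of 1 kb and 5 kb. Within loci it was 51.7%, 48.7% and 33.6%, and 29.8% with ends of 5 kb. Between genes it was 48.1%, 41.6% and 32.5%. At enhancers it was 26.1% with equal peak numbers, 24.2% with joined peaks and 22% when any peak of each mark sufficed, and enhancers stayed the lowest place in each of these settings. The ratio of covered length inside loci was 0.534 and 0.531 with ends of 1 kb and 5 kb, 0.597 with equal numbers, 0.533 with peaks of 300 bp or more and 0.507 with joined peaks.

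Genes that lost Pol II at an end numbered 1174 with peaks of 300 bp or more, 1639 with no filter on RNA and 458 at a mean of at least 5 FPKM, where fewer genes were tested. Genes that gained it numbered 183 with equal peak numbers, 759 with no filter and 45 at a mean of at least 5 FPKM. The median RNA log2 ratio of genes that lost Pol II minus that of genes that kept it was 0.22 with peaks of 300 bp or more, 0.29 at a mean of at least 5 FPKM, 0.06 with ends of 1 kb and 0.03 with no filter on low values, the lowest, against 0.13. Where no construction is named the cause was not tested. No paired analysis was possible because each condition had 1 library per antibody and no test was made, and for the same reason no library could be left out. Without depth or peak heights, a peak missing in a list cannot be told from one just below the authors' threshold.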

Other observations

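Every chromosome had fewer Pol II peaks after EP400 siRNA than after mock siRNA, but unevenly. The ratio was 0.844 on chromosome 14 (651 peaks after EP400 siRNA against 771 after mock siRNA), 0.827 on chromosome 20 and 0.806 on chromosome 4, and 0.538 on chromosome 16 (1148 after EP400 siRNA against 2133 after mock siRNA), 0.526 on chromosome 21 and 0.525 on chromosome 22 (647 after EP400 siRNA against 1232 after mock siRNA). Retention of mock peaks at locus ends was 81.5% on chromosome 4 and 56.8% on chromosome 16. Chromosome 20 had the highest share of EP400 siRNA peaks without a mock partner, 40.4%.

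Of 2571 windows of 1 Mb with a peak, 1618 had fewer peaks after EP400 siRNA than after mock siRNA, 561 had equal numbers and 392 had more. The largest drop was on chromosome 7 from 2000001 to 3000000, with 75 peaks after EP400 siRNA and 162 after mock siRNA, the window that holds LFNG and TTYH3. The next was on chromosome 21 from 45000001 to 46000000, with 31 peaks after EP400 siRNA and 96 after mock siRNA. The widest peak found after EP400 siRNA alone was 2900 bp, within PLXNB2 on chromosome 22 from 50718801 to 50721700, at an H3K18ac peak with no MED26 peak in either condition. Next in width were a peak of 2000 bp at an end of CCDC166, with a MED26 peak after EP400 siRNA, and a peak of 1800 bp within SCARF2, a scavenger receptor family gene, with none of these marks.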
